A study of Homo sapiens with 6 samples.

Results

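Described here are 9 genes for proteins that handle double-stranded RNA or are related to such proteins. The 4 kinases of the translation factor eIF2 (EIF2AK1 to EIF2AK4) are included, of which only that of EIF2AK2 answers double-stranded RNA. The others are the RNA-editing enzymes ADAR and ADARB1, and the small-RNA nuclease DICER1 with its partners TARBP2 and PRKRA. All 9 were taken by gene symbol from the array's probe annotation. Each of the 9 had 1 transcript cluster (the probes of 1 transcribed locus), so they make up 9 of 18417 genes with a cluster of their own symbol and 9 of 33297 clusters in all. No cluster that the annotation assigns to several genes included any of them.

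The study hybridised RNA of HEK293, an established human embryonic kidney line obtained from ATCC, to 6 Affymetrix Gene 1.0 ST arrays, 3 titled control and 3 titled treatment. It asked which mediators accompany an anti-HIV effect of an empty plasmid. The labels conflict over the groups: by the source field the control cells had a transient vector and the treatment cells a Neo vector, but by the design text the controls were untreated and the others were transfected with pCMV9. No genotype change, dose or time after transfection is given, no label says whether replicates were separate cultures, and p-values may therefore measure technical spread.

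PKR, the product of EIF2AK2, binds double-stranded RNA and then phosphorylates eIF2, which slows translation in infected cells. The other kinases of eIF2 answer other signals: HRI (EIF2AK1) haem shortage, PERK (EIF2AK3) misfolded protein in the endoplasmic reticulum, and GCN2 (EIF2AK4) uncharged tRNA. ADAR turns adenosine into inosine in double-stranded RNA, which lowers its ability to trigger PKR and the RNA sensors, and both EIF2AK2 and ADAR are textbook interferon-stimulated genes.

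EIF2AK2 and ADAR were the 2 of the 9 genes with a higher mean in the treatment arrays, and in both every treatment array lay above every control array. Such a separation occurred in 7.47% of all clusters. EIF2AK2 had 1.79 times and ADAR 1.54 times its control mean. The other 7 genes had slightly lower treatment means, with overlapping groups and intervals that spanned 0. None of the 9 passed limma at an adjusted p under 0.05 over all clusters, a threshold passed by 0.372% of clusters in either direction and by 0.357% as an increase. At an unadjusted p under 0.05 there were 2 of 9, against 7.3% of all clusters in either direction and 5.01% as an increase. In simulated data the adjusted threshold recovered 0% of 1.5-fold and 28% of 2-fold changes, and the ratios of EIF2AK2 and ADAR lie between these sizes. Missing that threshold therefore does not show that either gene was unchanged.

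**Figure D1:**
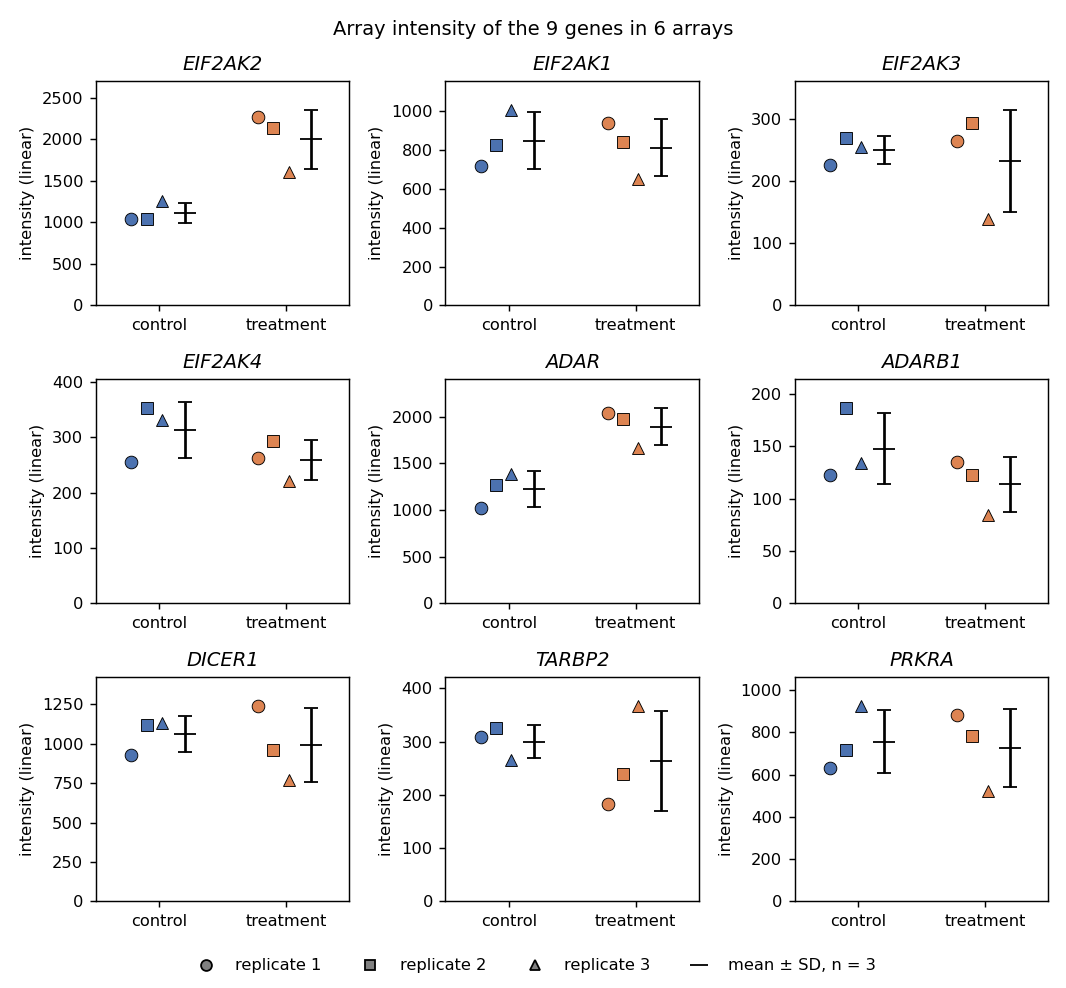
Array intensity (linear y axis from 0, scaled per gene) of each gene in control (blue) and treatment (orange) arrays. The marker shape gives the replicate, and the bar beside the points is the mean with its SD (n = 3). EIF2AK2 and ADAR have all 3 treatment points above all control points, and in the other 7 panels the groups overlap.

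The stretch before the transcription start of EIF2AK2 is shown because it holds a match to the core of the interferon-stimulated response element, the site bound by the transcription factor complex that interferon activates. The same stretch before 2 starts of ADAR is shown for comparison. All are from RefSeq on GRCh38.p14, read 5′ to 3′ on the minus strand, from 110 bases before the start to its first 4 transcribed bases, with capitals for the match. They lie at chr2:37156977-37157090 for EIF2AK2 and, for ADAR, at chr1:154627994-154628107 (upstream start) and chr1:154608794-154608907 (downstream start).

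EIF2AK2: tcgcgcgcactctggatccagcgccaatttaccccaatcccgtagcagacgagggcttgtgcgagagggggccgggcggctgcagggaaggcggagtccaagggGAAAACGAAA
ADAR upstream start: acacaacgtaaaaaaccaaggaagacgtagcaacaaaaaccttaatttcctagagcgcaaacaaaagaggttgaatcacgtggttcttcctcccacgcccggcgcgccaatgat
ADAR downstream start: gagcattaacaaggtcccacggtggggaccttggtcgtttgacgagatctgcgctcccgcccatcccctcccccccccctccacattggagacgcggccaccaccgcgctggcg

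The match in EIF2AK2, GAAAACGAAA at chr2:37156977-37156986, covers the last 6 bases before the annotated start and the first 4 after it. The search took the letters GAAANNGAAA on both strands of windows from 250 bases before a start to 50 bases after it. The RefSeq table held 21 such windows for 8 of the 9 genes, with EIF2AK1 unmatched, and the EIF2AK2 window was the 1 with this core. Of all 35116 windows in the table, 3.57% hold it. The core of the gamma-activated site, TTCNNNGAA, was in 0 of the 21 windows and in 7.66% of all windows. The windows of ADAR, at 3 annotated starts, had neither core, which says only that these letters are not in them.

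EIF2AK2, at chr2:37099210-37156980 on GRCh38.p14, gave intensities of 1041, 1046 and 1255 in control replicates 1, 2 and 3 and 2263, 2129.6 and 1601 in treatment replicates 1, 2 and 3. The groups did not overlap, and treatment replicate 3 was the lowest of its group. In RNA of whole cultures, more transcript per cell and more cells with the transcript cannot be told apart. Every treatment array was above every control array in 7.47% of all clusters. The means were 1114 ± 122 and 1998 ± 351 (SD, n = 3). On the log2(intensity + 16) scale used for all tests, the change of EIF2AK2 was 0.82 ± 0.211 (SE), with a 95% interval from 0.37 to 1.28. That change had an unadjusted p of 0.00171 and an adjusted p of 0.292 (limma), rank 195 of 33297 by p, and it was smaller than every called change, of which the smallest was 1.06. The annotation ties 3 RefSeq mRNAs to this cluster, so transcripts of the gene cannot be told apart.

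The call of EIF2AK2 depends on how limma models the variance. When its variance prior was allowed to follow intensity, EIF2AK2 passed (adjusted p = 0.00235), where 0.432% of clusters passed as increases. With the intensity-following prior EIF2AK2 also passed in 4 of the 6 fits that left out 1 array, which were added after the data were seen. It did not without control replicate 1 (limma, adjusted p = 0.0929) or treatment replicate 2 (limma, adjusted p = 0.0579).

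ADAR, at chr1:154582057-154627997, read 1019, 1269.7 and 1391 in control replicates 1, 2 and 3, against 2036, 1974 and 1668 in treatment replicates 1, 2 and 3; the arrays of other genes follow in this order. As for EIF2AK2, treatment replicate 3 was the lowest of its group and still above every control array. The means were 1226 ± 189.7 and 1893 ± 197 (SD, n = 3). The change of ADAR was 0.63 ± 0.207 on the log2 scale, with a 95% interval from 0.18 to 1.07 (limma, adjusted p = 0.563). With the intensity-following prior its adjusted p was 0.052, and it passed there without control replicate 3 (0.0262) or treatment replicate 3 (0.0317). The cluster carries 5 RefSeq mRNAs, among them those of the long, interferon-inducible and the short, constitutive ADAR proteins, so the data do not say which form was higher.

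ADARB1 encodes the second active editing enzyme, best known for recoding glutamate receptor mRNA in neurons. Its intensities were 122, 186 and 134 for control, against 135, 123 and 84.5 for treatment. The groups overlapped, with control replicate 2 highest and treatment replicate 3 lowest. Its means were 148 ± 34.1 and 114 ± 26.3 (SD, n = 3). This made a log2 difference of -0.33 (95% interval -0.83 to 0.16; limma, adjusted p = 0.761). All 9 genes had means above the 95th percentile of the 360 olfactory receptor clusters, genes silent in most tissues, which was 51.2 in control and 67.4 in treatment arrays.

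**Figure D2:**
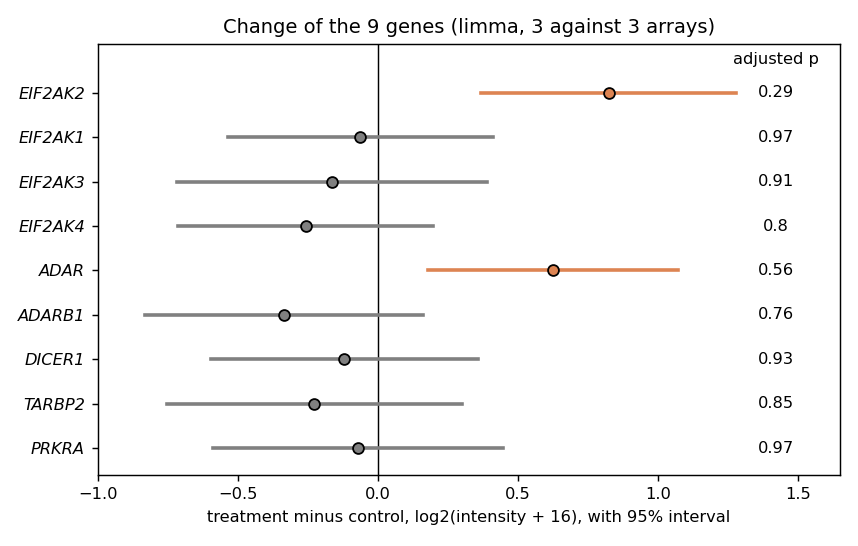
Change of each gene, treatment minus control, on the log2(intensity + 16) scale (points) with its 95% interval from limma (lines) and the adjusted p over all 33297 clusters at the right. The intervals of EIF2AK2 (0.37 to 1.28) and ADAR (0.18 to 1.07), in orange for an unadjusted p under 0.05, lie above 0, and the other 7, in grey, span it.

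The remaining eIF2 kinases had overlapping groups. EIF2AK1, the haem-regulated kinase, gave 717, 824 and 1005 for control and 942, 844 and 653 for treatment, a log2 difference of -0.063 (95% interval -0.53 to 0.41). EIF2AK3, the kinase of the unfolded protein response, gave 225, 269 and 255, then 264, 292 and 138, a change of -0.16 (-0.72 to 0.39). Its treatment replicates 1 and 2 were within or above the control range and replicate 3 was far below it. EIF2AK4, the amino acid sensor, gave 255, 352 and 331, then 263, 292 and 220.1, a change of -0.26 (-0.71 to 0.20). Adjusted p over the 3 genes ran from 0.80 for EIF2AK4 to 0.968 for EIF2AK1 (limma). The changes of EIF2AK1 and EIF2AK3 turned positive without treatment replicate 3, to 0.084 and 0.15, and that of EIF2AK1 also without control replicate 3, to 0.064.

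DICER1 cuts double-stranded precursors into microRNAs, and TARBP2 and PRKRA are its double-stranded RNA-binding partners. The pair also touch PKR directly, TARBP2 as an inhibitor and PRKRA, whose protein is called PACT, as an activator under stress. DICER1 gave 931, 1119 and 1135 for control and 1238, 961 and 771 for treatment, so that the treatment arrays reached both above and below all controls. Its log2 difference was -0.12 (95% interval -0.60 to 0.36). PRKRA gave 631, 717 and 924, then 881, 781 and 521, a difference of -0.071 (-0.59 to 0.45). TARBP2 gave 309, 325 and 265, then 183, 239 and 366, a change of -0.23 (-0.75 to 0.30). TARBP2 had its lowest value of the 6 in treatment replicate 1 and its highest in treatment replicate 3, whereas within the treatment group DICER1 and PRKRA were highest in replicate 1 and lowest in replicate 3. Adjusted p for the 3 genes ran from 0.854 to 0.967 (limma). Without treatment replicate 3 the changes of DICER1 and PRKRA were 0.045 and 0.15, that of PRKRA was 0.079 without control replicate 3, and that of TARBP2 was -0.48 without treatment replicate 3 and -0.010 without treatment replicate 1.

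Treatment replicate 3 was the array with the lowest mean correlation with the others over all clusters, a Pearson's r of 0.963 against 0.972 to 0.978 for the other 5. It held the lowest of the 6 values for 6 of the 9 genes: EIF2AK1, EIF2AK3, EIF2AK4, ADARB1, DICER1 and PRKRA. That array held the lowest value in 29.2% of all clusters and in 39.8% of those at or above the median intensity. Set against its control mean, the median gene of the 9 stood at -0.45 log2 units in treatment replicate 3, 0.16 in replicate 1 and 0.0064 in replicate 2, and the control arrays ran from -0.22 to 0.10. The part of that array's low values in the results was not tested. Without it the changes of EIF2AK2 and ADAR were 0.97 and 0.71, and neither passed (limma, adjusted p = 0.105 and 0.417).

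**Figure D3:**
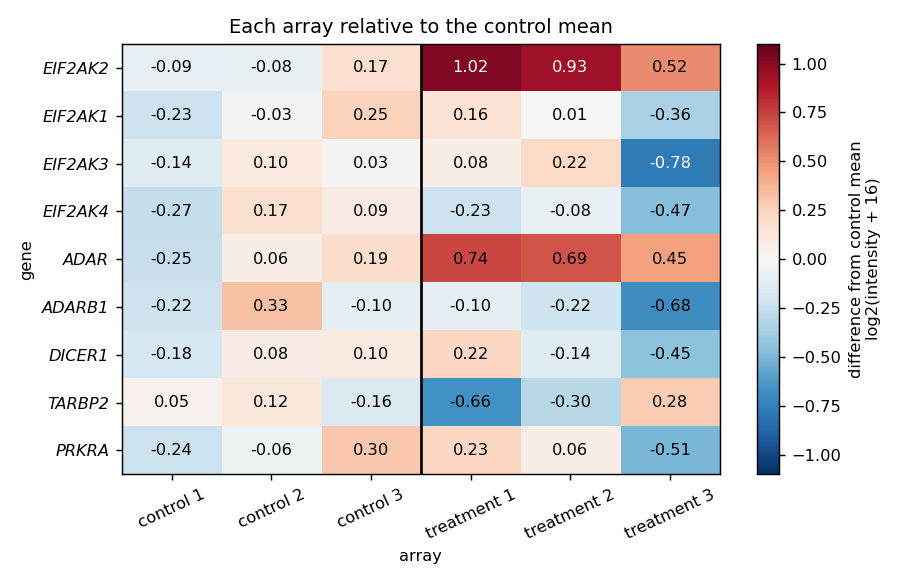
Difference of each array from the control mean of the same gene, in log2(intensity + 16) units, with genes in rows and arrays in columns; red is above and blue below the control mean. EIF2AK2 (0.52 to 1.02) and ADAR (0.45 to 0.74) are red in all 3 treatment columns, and 6 of the other 7 genes are blue in treatment replicate 3.

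Comparing genes within each array removes what an array does to both genes alike. Relative to its control mean, the log2 difference EIF2AK2 minus EIF2AK1 was 0.86, 0.92 and 0.88 in treatment replicates 1, 2 and 3 and between -0.079 and 0.13 in the control arrays. Replicate 3, low for both genes, lay between the other treatment arrays in this difference. It was the highest of them for EIF2AK2 minus EIF2AK3 (0.94, 0.71 and 1.30) and the lowest for EIF2AK2 minus EIF2AK4 (1.24, 1.01 and 0.99). The mean unequal change was 0.89 ± 0.0706 (SE, n = 3 a group) against EIF2AK1, 0.99 ± 0.198 against EIF2AK3 and 1.08 ± 0.155 against EIF2AK4. For ADAR minus ADARB1 it was 0.96 ± 0.185. In these 4 differences 3 of 3 treatment arrays lay above all controls, and the exact permutation test (two-sided) gave p = 0.1 for each, the smallest that 3 against 3 arrays allow, or 0.125 after Benjamini-Hochberg adjustment over 5 differences. The differences with EIF2AK2 share its values, and EIF2AK2 and ADAR were already separated between the groups on their own. The 4 results are therefore not independent, and no share over other pairs of genes was taken. The fifth, PRKRA minus TARBP2, gave 0.89, 0.36 and -0.79 in the treatment arrays, a mean of 0.16 ± 0.548 (exact permutation p = 0.9). Its mean was -0.21 without treatment replicate 1 and 0.63 without treatment replicate 3.

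The other double-stranded RNA sensors and the genes of the 2-5A pathway, which answers double-stranded RNA with short oligoadenylates, gave far larger differences. Of 15 measured genes of this list 11 rose and 0 fell, and the remaining 4 missed the threshold. Of all clusters 0.357% rose, and 0.372% passed in either direction. The list's median change was 2.39, where that of all clusters was 0.012. With a plain log2 in place of the offset 7 were called, among 40 called of all 33297 clusters. The 11 were OAS2 (4.60), OAS1 (3.70), OASL (3.18) and OAS3 (3.00) of the oligoadenylate synthetase family, the helicases RIGI (2.56), IFIH1 (2.45), DDX60 (2.44) and DHX58 (2.17), the endosomal receptor TLR3 (2.39), the mitochondrial RNA-processing enzyme PNPT1 (1.14) and the RIG-I ubiquitin ligase TRIM25 (1.11). PNPT1 went from 842 ± 37.1 to 1873 ± 134 and TRIM25 from 461 ± 34.4 to 1011 ± 58.2 (SD, n = 3). MAVS, the mitochondrial adaptor below the RNA helicases, was lower in all 3 treatment arrays (372, 359 and 374 against 418, 594 and 547), but its difference of -0.46 ± 0.205 missed the threshold (limma, adjusted p = 0.68). The median of all 15 measured genes was, against their control means, 2.09, 2.56 and 2.39 in treatment replicates 1, 2 and 3. Treatment replicate 3, lowest of its group for EIF2AK2 and ADAR, did not have the lowest median of this list, although it was the lowest for PNPT1 (1871, 2008 and 1739).

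Neither of the lists of eIF2 genes and stress targets held a gene that passed. Among 19 genes for eIF2, its exchange factor eIF2B, its phosphatases and regulators of its kinases, limma called 0, also at an unadjusted p under 0.05, and the median difference was -0.14. The lowest p were those of the eIF2B subunit EIF2B5 (-0.36 ± 0.20), the stress-induced phosphatase subunit PPP1R15A (0.33 ± 0.217) and the phosphatase PPP1CA (-0.26 ± 0.199). Of 18 targets of the integrated stress response, the programme that eIF2 phosphorylation sets off, 0 passed, with a median of 0.19. An unadjusted p under 0.05 (limma) was reached by 3 of the 18, against 7.3% of all clusters. In 3 of the 18 every treatment array lay above every control array, against 7.47% of all clusters. In 2 every one lay below, for which no share over all clusters was taken. ATF3, a stress-induced transcription factor, gave 148, 202 and 193 for control and 258, 317 and 290.1 for treatment, without overlap and with a change of 0.63 ± 0.205 (limma, adjusted p = 0.546). CHAC1, a glutathione-degrading enzyme, also lay higher in all 3 treatment arrays (0.53 ± 0.223, adjusted p = 0.677), and the lipoprotein receptor VLDLR lower (-0.53 ± 0.208, adjusted p = 0.663).

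Relatives of ADAR and the small-RNA machinery likewise held no gene that passed. Of 15 measured double-stranded RNA-binding proteins and ADAR relatives, 0 passed, with a median of -0.11. An unadjusted p under 0.05 (limma) was reached by 1 of the 15, against 7.3% of all clusters. That 1 was the helicase DHX30, which gave 676, 658 and 606, then 391, 427 and 490.4, a change of -0.56 ± 0.196 (limma, adjusted p = 0.602). The zinc finger protein ZNF346 (-0.37 ± 0.206) and the RNA-binding protein ILF2 (-0.21 ± 0.194), were next by p. Among 15 genes of microRNA biogenesis and the Argonaute proteins, limma called 0, also at an unadjusted p under 0.05, and the median was -0.097. The lowest p there were those of AGO2, the Argonaute that cuts its target (-0.41 ± 0.236), TSN (-0.30 ± 0.193) and SND1 (-0.18 ± 0.195). These lists, too, had low medians in treatment replicate 3, of -0.39 for the first and -0.38 for the second relative to the control mean.

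**Figure D4:**
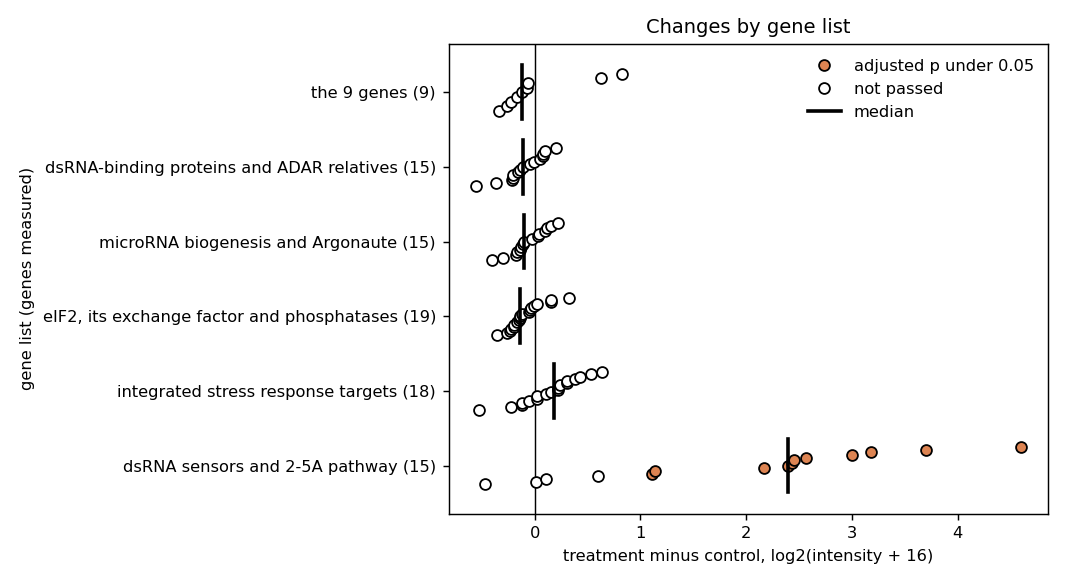
Change of single genes, treatment minus control, on the log2(intensity + 16) scale, for the 9 genes and for 5 lists around them; filled points passed limma at an adjusted p under 0.05, open points did not, and vertical bars are medians. Filled points occur only in the list of sensors and the 2-5A pathway (11 of 15, median 2.39), while the medians of the other lists lie between -0.14 and 0.19.

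Likeness of pattern was measured as Pearson's r over the 6 arrays, among 13470 genes with a mean intensity of at least 50. That minimum is under the 95th percentile of the olfactory receptor clusters (51.2 in control and 67.4 in treatment arrays). Genes without a clear signal can therefore be among those named. The genes most like EIF2AK2 were NAMPT (r = 0.991), GATAD1 (0.991), DSTYK (0.99), RPS6KB1 (0.985) and IFRD1 (0.981). Those most like ADAR were TSPAN2 (0.988), PDHA2 (0.988), GPM6A (0.984), WASHC4 (0.984) and USP9Y (0.98). None of these 10 genes passed limma, with adjusted p between 0.563 and 0.802. EIF2AK2 and ADAR had r = 0.961 with each other. With 6 arrays in 2 groups, these values describe the arrays only.

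The arrays carried the marks of the line. All 9 measured HEK293 genes, among them the keratin KRT18 and the neurofilament NEFM, had means above the olfactory receptor range, and 0 of the 9 passed. PAX2 was near the limit in control arrays (56.0, against 51.2). It was higher in all 3 treatment arrays, with a change of 0.76 ± 0.203 (SE; limma, adjusted p = 0.328). Of 9 leukocyte markers 6 lay at or under that range in both groups, among them PTPRC (23.4 and 17.1) and CD3E (25.1 and 23.3). Above it lay NCAM1 (524 and 501), CD14 (182 and 212) and the lysosomal protein CD68, which rose (105 and 303). The summed leukocyte markers ran from 851 to 1058 in control and from 1131 to 1192 in treatment arrays. NCAM1 and CD68 weigh heavily in these sums, which therefore do not measure leukocyte content. Fibroblast markers summed to between 505 and 691 in control and between 463 and 626 in treatment arrays, with COL1A1 (389 and 277) the largest part. Of these 7 markers 4 lay at or under the range in both groups, and 0 passed. No marker was listed at 0, and the part of other cells in the results was not tested.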

How the data were processed

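The authors' deposited table holds 1 linear intensity per transcript cluster and array. The submitters' processing notes name Partek, and how background was corrected, arrays normalized and probes summarised is not given in the sources used here. Arrays were grouped by title, and columns were matched by accession. Genes were named from the platform annotation of 2016 and the RefSeq gene table (GRCh38.p14), whose coordinates are those printed.

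Because some intensities approach 0, 16 was added before log2. Fold changes on that scale understate the change of dim clusters. For each of 33297 clusters, limma 3.58.1 under R 4.3.3 fitted a linear model with moderated variances (two-sided). Its p-values were adjusted by Benjamini-Hochberg over the whole table, with 0.05 as threshold. "Rose" and "fell" mean past that threshold. Differences between genes within arrays were tested with SciPy 1.17.1 by exact permutation. The pipeline was tested on simulated data. The number of arrays limits the precision.

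The genes, the 5 lists and 3 marker lists were chosen with earlier results of these data known. Named genes are the 9, every called gene and the 3 of lowest p in each list, and the 5 most like EIF2AK2 and ADAR. MAVS was named after its values were seen, as were the examples among markers. Some listed genes are not reported here. Alternatives were other offsets, normalizations, filters and variance priors, the replicate number as a block, and leaving out each array.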

Additional observations from a re-analysis of the deposited data

How the results depend on the processing

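Over 23 alternatives each, the changes of EIF2AK2 and ADAR ran from 0.73 to 0.97 and from 0.50 to 0.72 log2 units. The filters, variance priors and replicate block do not move a change, only its p-values. In both genes every treatment array lay above every control array, so leaving out 1 array could not reverse the sign. For those alternatives the kept sign is therefore no measure of robustness. The intensity-following variance prior called 1 of the 9 genes, EIF2AK2 (0.82). With that prior, fits chosen after seeing the data called EIF2AK2 also without control replicate 2 (0.78), control replicate 3 (0.91), treatment replicate 1 (0.73) or treatment replicate 3 (0.97), and ADAR without control replicate 3 (0.72) or treatment replicate 3 (0.71). Leaving out 1 array gave changes from -0.18 to 0.084 for EIF2AK1, -0.35 to 0.15 for EIF2AK3, -0.22 to 0.15 for PRKRA and -0.29 to 0.045 for DICER1, all without a call. It gave -0.21 to 0.63 for PRKRA minus TARBP2, as values with no test. The clusters called fell from 124 to 40 when log2 was taken without an offset and to 58 when 1 was added, and ran from 69 to 129 with 1 array left out. A plain log2 called 7 of the 15 sensors. The causes were not tested. With the replicate number as a block, 105 clusters were called and EIF2AK2 had an adjusted p of 0.727 (limma). Deviations of same-numbered arrays correlated at -0.166, 0.0839 and -0.356, and 0 of 6 arrays correlated best with their own number, so the numbers were not taken as pairs. The means of all 9 genes lay above the olfactory receptor range.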
